A study of Homo sapiens with 6 samples.

Results

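The antiviral effector genes described here are 48 genes that cells switch on when they sense interferon. Many of their products, but not all, act on viruses or on viral RNA. They were chosen by symbol from the known families (MX, IFI, IFIT, OAS, IFITM, HERC, PARP and related genes). The choice was made with earlier results of these data known. All 48 have a row among the 23152 genes counted. The samples were T24 cells, an established human bladder cancer line, in 2 groups of 3: cells with the empty control construct (vector) and cells overexpressing RNF112 (oeRNF112), a RING-type E3 ubiquitin ligase. The labels give no difference in growth between the groups and name no interferon or virus treatment. This does not show that no viral vector was used. The study's text describes both transient plasmid transfection and lentiviral T24 lines and does not say which gave the sequenced RNA, while the labels' protocol names only an siRNA transfection. No sample carries an inactive RNF112, so the introduced construct and the protein it encodes cannot be told apart. The labels number the replicates without saying that they were separate cultures, and p-values therefore measure only the spread between these samples, which may be technical.

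Type I and type III interferons bind receptors on the cell surface, the receptors activate the kinases JAK1 and TYK2, and these phosphorylate proteins of the STAT family. Together with IRF9 the phosphorylated STATs form the complex ISGF3, which enters the nucleus and binds interferon-stimulated response elements in the promoters of the effector genes. The products then act at each step of infection: membrane proteins hinder entry, RNA-binding proteins stop translation or have RNA degraded, ISG15 is attached to proteins, and nucleotide enzymes disturb copying of the genome. Many tumour lines keep part of this program on without any infection.

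To show what kind of sequence lies in front of these genes, the 170 bases upstream of the annotated start are printed for the genes with the largest rises among the IFI-named genes (IFI6 and IFI44L) and for neighbours of the IFITM family (IFITM1 and IFITM3). They were read from RefSeq's GRCh38.p14, run 5′ to 3′ on the strand of the gene and end at the base before the start. Capitals mark each match to GAAA followed, after any 2 bases, by GAAA again, the core of the interferon-stimulated response element. IFI6 is chr1:27672193-27672362 on the minus strand, IFI44L is chr1:78620278-78620447 on the plus strand, IFITM1 is chr11:313870-314039 on the plus strand and IFITM3 is chr11:320861-321030 on the minus strand.
IFI6: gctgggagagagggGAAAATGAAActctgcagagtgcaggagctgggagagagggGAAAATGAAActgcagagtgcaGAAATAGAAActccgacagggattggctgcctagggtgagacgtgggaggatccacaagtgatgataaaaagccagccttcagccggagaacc
IFI44L: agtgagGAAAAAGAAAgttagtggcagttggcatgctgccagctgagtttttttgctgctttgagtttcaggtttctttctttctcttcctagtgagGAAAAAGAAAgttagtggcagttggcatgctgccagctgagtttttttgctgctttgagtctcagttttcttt
IFITM1: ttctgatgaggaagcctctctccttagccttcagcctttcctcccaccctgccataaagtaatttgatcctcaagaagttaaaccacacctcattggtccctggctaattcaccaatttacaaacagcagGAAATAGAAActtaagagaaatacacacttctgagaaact
IFITM3: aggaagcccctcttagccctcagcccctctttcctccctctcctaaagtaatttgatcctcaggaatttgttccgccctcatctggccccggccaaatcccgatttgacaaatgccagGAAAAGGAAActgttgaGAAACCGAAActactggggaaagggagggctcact
The IFI6 stretch holds 3 matches, which begin 156, 115 and 93 bases upstream of the start. The first and second of them lie in copies of a 29-base sequence that begin 173 and 132 bases upstream. A repeat at least that long was found in 0.489% of the windows of the genes tested. IFI44L has its 2 matches, at 164 and 73 bases, inside copies of an 85-base sequence beginning 189 and 98 bases upstream, a length of repeat found in 0.0785% of windows. IFITM1 has a match at 40 bases, and another begins 6 bases upstream and runs past the start. IFITM3 has matches at 52 and 35 bases.

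Matches of this kind were common in front of the antiviral genes. RefSeq promoter windows (250 bases before to 50 after a start) were given for 39 of the 48 genes, and 28 of the 39 (71.8%) held this motif on at least 1 strand in at least 1 window. Among all genes tested that had a window, 460 of 11415 (4.03%) held it. At least 2 matches were found for 15 antiviral genes, and 0.394% of the genes tested that had a window had as many. Windows of USP18, ZNFX1, IFIT2, LAMP3, PARP10, MX2, OASL, OAS2 and IFITM2 were not analysed here. Of the antiviral genes with a match, 25 of 28 were higher in oeRNF112, with a median log2 fold change (log2FC) of 0.77. Of those without, 8 of 11 were higher, with a median of 0.73. Over all genes tested that had a window, 14.1% with a match and 9.52% without were higher. RTP4, the gene with the lowest log2FC of the 48, also had matches, at 42 and 18 bases upstream. A match is a description of these letters and was not tested for binding.

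RNF112 itself went from 27, 19 and 24 counts in vector to 29753, 36963 and 31712 in oeRNF112, in keeping with the labels, although reads from the construct may be among them. The samples held between 40029547 and 41259569 counts in total. Marker genes were read for the kind of cell, which does not test the identity of the line. Of the epithelial and T24 markers, KRT7 and KRT18 were lower in oeRNF112 (adjusted p = 0.0226 and 0.013, edgeR). The summed level of 6 epithelial and T24 markers (KRT7, KRT8, KRT18, KRT19, VIM and CD44) was 3224 to 4430 RPKM (counts scaled by gene length and sample total), 5 luminal urothelial markers with a row summed to 1.27 to 1.61 RPKM, and 3 endothelial markers to at most 0.0952 RPKM. Summed leukocyte markers reached 4.62 to 5.89 RPKM in vector and 3.18 to 6.05 RPKM in oeRNF112, with the T cell marker CD3E at 0 counts in 5 of the 6 samples. Of the 5 leukocyte markers tested, LAPTM5 was lower in oeRNF112 and the other 4 did not pass the test. The part of such markers in the results was not tested. LYZ had 97 counts in oeRNF112 replicate 1 and at most 8 in each other sample. In bulk RNA a change in every cell and a change in a share of the cells cannot be told apart.

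The antiviral genes as a group were higher in oeRNF112. Of the 48 genes, all of which passed edgeR's filter on low counts, 38 rose, 2 fell and 8 did not pass the test at an adjusted p under 0.05 (edgeR's quasi-likelihood test, Benjamini-Hochberg over all genes tested). Among the 14467 genes tested, 9.97% were higher and 8.14% were lower by the same rule. The median log2FC of the 48 was 0.76, with a range from -1.70 to 3.16, against 0.00267 for all genes tested. On counts scaled with TMM factors, every oeRNF112 sample lay above every vector sample in 40 genes, in 2 every one lay below and in 6 the groups overlapped, while 18.9% and 17.9% of all genes tested were separated in these directions. Both an adjusted p under 0.05 and a rise of at least 1 on the log2 scale were found for 16 of the 48, compared with 3.38% of all genes tested. The genes that did not pass were IFITM2, OASL, UBE2L6, PARP10, PARP14, DTX3L, IFI35 and SAMD9L, and those that fell were IFIT2 and RTP4.

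**Figure D1:**
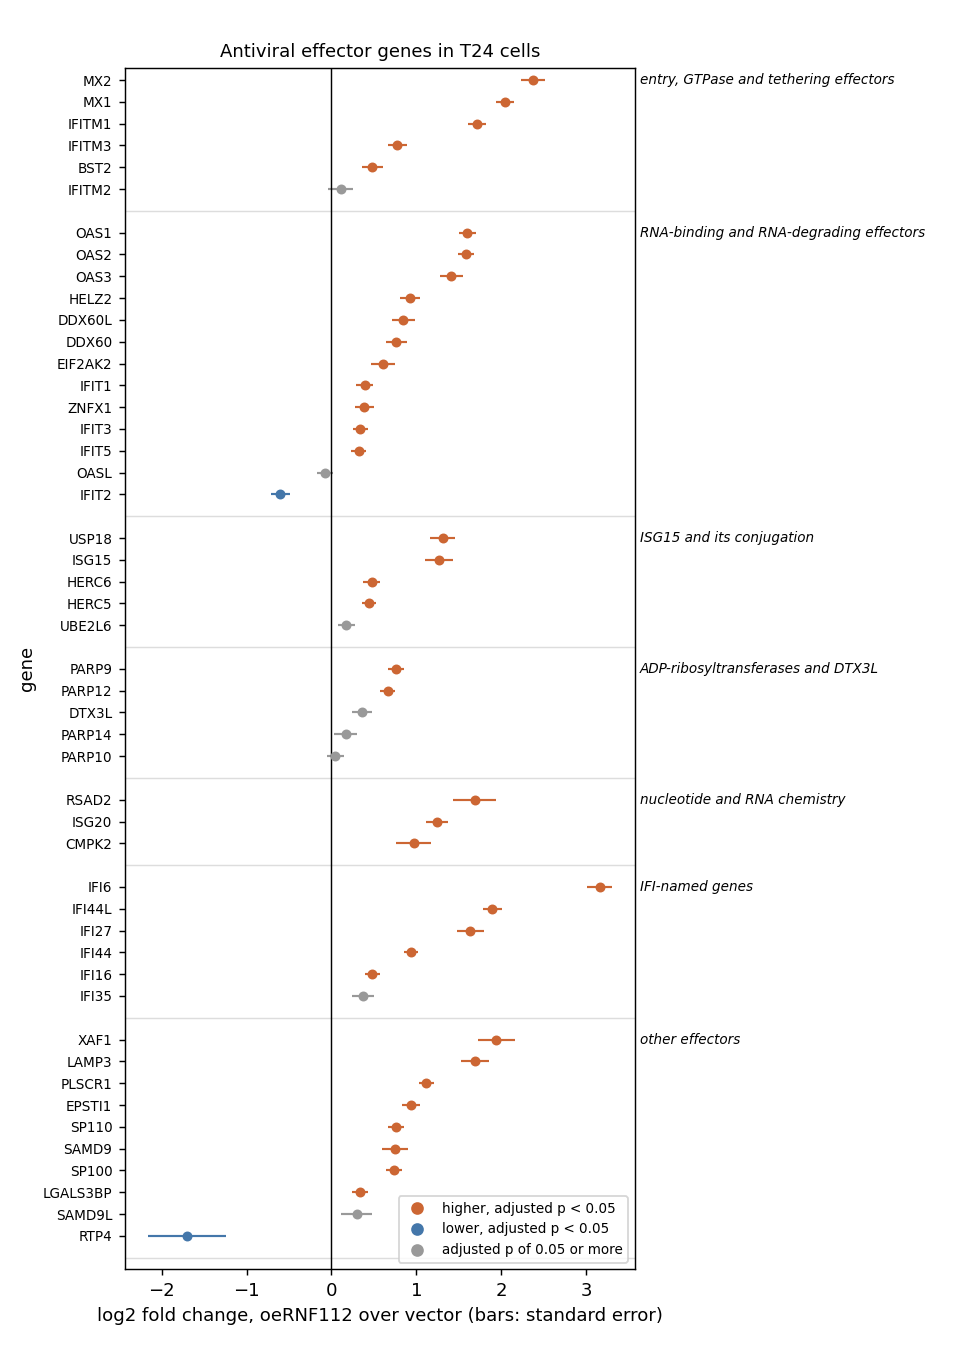
Fitted log2FC of each of the 48 antiviral genes (horizontal axis, oeRNF112 over vector), grouped by role, with bars of 1 standard error. Orange points are the 38 genes that were higher, blue the 2 that were lower and grey the 8 that did not pass an adjusted p of 0.05. IFI6 lies farthest to the right at 3.16 and RTP4 farthest to the left at -1.70.

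On the median of the 48 genes, the samples of each group lay close together. Relative to the vector mean of each gene, the median of the 48 genes was 0.06, -0.03 and -0.02 on the log2 scale in vector replicates 1, 2 and 3, and 0.66, 0.76 and 0.80 in oeRNF112 replicates 1, 2 and 3. No oeRNF112 sample came near a vector sample on this measure. Summed over the 48 genes, the level was 1667 to 1837 RPKM in the vector samples and 3331 to 3994 RPKM in the oeRNF112 samples. The share of all counts that fell on these genes was 0.359% to 0.381% in vector and 0.621% to 0.678% in oeRNF112.

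Many of these genes were already on in vector cells. IFITM3 had the highest level in both groups, at 413 ± 32.7 RPKM in vector and 754 ± 86.6 RPKM in oeRNF112 (SD, n = 3). IFI27, ISG15 and LGALS3BP followed in both groups. In vector they stood at 207 ± 18.7, 170 ± 27.6 and 147 ± 13.2 RPKM, and in oeRNF112 at 685 ± 144, 435 ± 79.1 and 199 ± 5.22 RPKM (SD, n = 3). In vector, ISG15 and LGALS3BP differed by less than the SD of ISG15, and in oeRNF112 IFITM3 and IFI27 differed by less than the SD of either. At the other end MX2, LAMP3, CMPK2, XAF1, RSAD2 and RTP4 each had under 1 RPKM in vector, from 0.794 for MX2 to 0.257 for RTP4. The order changed most for IFI6, which went from rank 18 to rank 6 of the 48, at 19.5 ± 1.70 RPKM in vector and 186 ± 30.4 RPKM in oeRNF112.

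**Figure D2:**
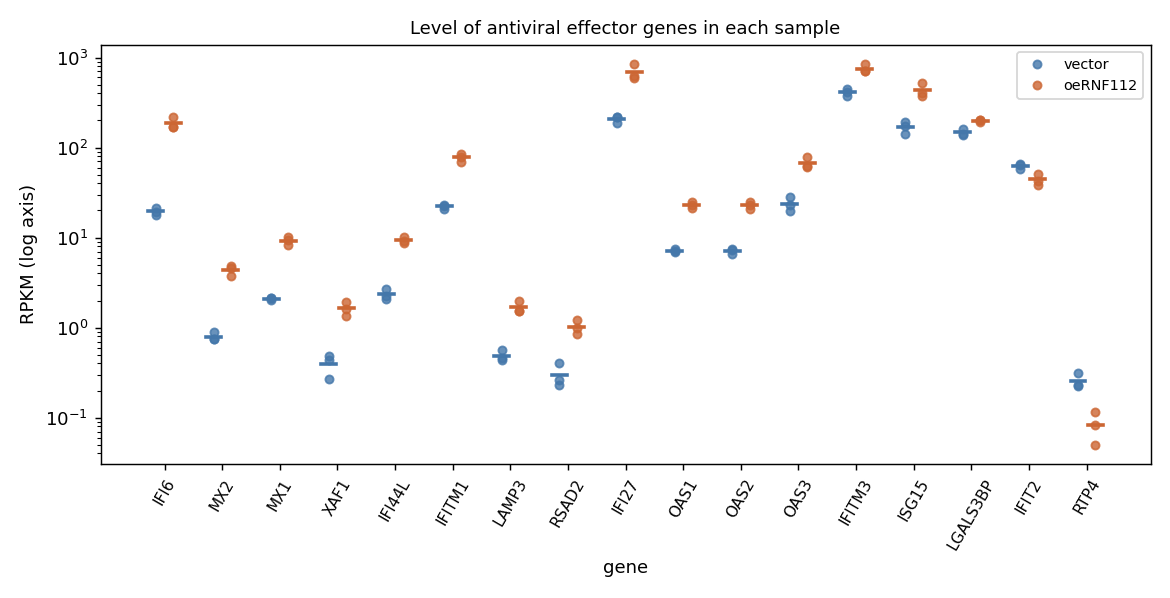
Level in each sample (vertical log axis, RPKM) of the 12 antiviral genes with the largest rises, the 3 others among the 4 most abundant and the 2 that fell, with a point per sample and a horizontal bar at the mean of the 3 samples. Vector is blue and oeRNF112 orange. The groups are separated for every gene drawn, with oeRNF112 below vector only for IFIT2 and RTP4.

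Proteins that act at entry, on the capsid or at release form the first group, in which 5 of 6 genes rose and 1 did not pass the test (median log2FC 1.24). Over all genes tested 9.97% were higher and 8.14% lower. In 18.9% every oeRNF112 sample lay above every vector sample. These shares also belong beside the counts of the other groups below. MX1, a dynamin-like GTPase that traps viral nucleocapsids, had 491, 500 and 504 counts in vector and 1917, 2229 and 2383 in oeRNF112. The vector samples hardly differed, and the lowest oeRNF112 sample was far above them, for a log2FC of 2.05 (standard error, SE, 0.106, adjusted p = 7.84e-06, edgeR). Its neighbour MX2, a related GTPase known for blocking HIV-1 before nuclear entry, went from 137, 161 and 134 counts to 663, 835 and 862. This was a log2FC of 2.37 (SE 0.142, adjusted p = 1.96e-05, edgeR), and the groups did not overlap. BST2, which tethers budding virions to the cell surface, rose by less, with a log2FC of 0.48 (SE 0.124, adjusted p = 0.0257, edgeR). Its call was lost without vector replicate 1, oeRNF112 replicate 1 or oeRNF112 replicate 2 (adjusted p = 0.0697, 0.0861 and 0.0569, edgeR).

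The 3 IFITM genes lie side by side on chromosome 11 and encode membrane proteins that hinder fusion of virus and cell. IFITM1 had 637, 568 and 603 counts in vector and 1868, 2275 and 2126 in oeRNF112 (log2FC 1.71, SE 0.109, adjusted p = 2.21e-05, edgeR). IFITM3, the most abundant of the 48, had 10521, 9345 and 10907 counts in vector and 17159, 21145 and 17409 in oeRNF112. The oeRNF112 samples were higher throughout, and the log2FC was 0.78 (SE 0.114, adjusted p = 0.00206, edgeR). IFITM2, which lies 4644 bases from IFITM1, had 1769, 1313 and 1541 counts in vector and 1593, 2101 and 1582 in oeRNF112. These overlapped, with a log2FC of 0.11 (SE 0.148, adjusted p = 0.634, edgeR), and the sign turned when vector replicate 2 (-0.0033) or oeRNF112 replicate 2 (-0.04) was left out. The IFITM genes are near-identical copies in places, and the counting may have split or dropped reads that they share.

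The group of RNA-binding and RNA-degrading effectors was the widest, with 11 of 13 genes higher, 1 lower and 1 that did not pass (median 0.60). The OAS enzymes make oligoadenylates that activate RNase L when they meet double-stranded RNA. OAS1 had 1264, 1156 and 1179 counts in vector and 3563, 4175 and 3784 in oeRNF112 (log2FC 1.60, SE 0.0977, adjusted p = 1.96e-05, edgeR). OAS2 went from 1879, 1817 and 1614 counts to 5046, 5645 and 6140 (log2FC 1.58, SE 0.0983, adjusted p = 2.05e-05, edgeR). OAS3, with 6324, 7578 and 5252 counts in vector and 16360, 16460 and 21064 in oeRNF112, rose by 1.41 (SE 0.137, adjusted p = 0.000283, edgeR). In all 3 genes the lowest oeRNF112 sample had more than the highest vector sample. OASL, a relative without the synthetase activity that lies apart from the others on chromosome 12, had 6406, 5521 and 5965 counts in vector and 5941, 6359 and 5615 in oeRNF112. Its samples were mixed, with a log2FC of -0.08 (SE 0.0955, adjusted p = 0.601, edgeR), which became 0.02 when library totals were used in place of TMM factors.

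IFIT proteins bind the ends of foreign RNA and shut off its translation. IFIT1 had 7785, 6434 and 6749 counts in vector and 9285, 10395 and 9392 in oeRNF112. It rose by 0.39 on the log2 scale (SE 0.1, adjusted p = 0.0247, edgeR), and IFIT3 and IFIT5 rose by 0.34 and 0.32 (adjusted p = 0.0279 and 0.0362, edgeR). The groups did not overlap for these 3 genes, but the calls depended on single samples. That of IFIT1 was lost without vector replicate 3, oeRNF112 replicate 1 or oeRNF112 replicate 2 (adjusted p = 0.0601, 0.0703 and 0.0623, edgeR). In the same 3 fits the calls of IFIT3 (0.0718, 0.0668 and 0.0657) and IFIT5 (0.0812, 0.0849 and 0.0993) were lost as well, and both were lost without oeRNF112 replicate 3 (0.0831 and 0.0846) and that of IFIT5 without vector replicate 1 (0.071). IFIT2, the partner of IFIT3 in protein complexes, moved the other way, with 9294, 8897 and 7866 counts in vector and 6950, 5342 and 5858 in oeRNF112. All oeRNF112 samples lay below all vector samples, and the log2FC was -0.60 (SE 0.110, adjusted p = 0.00587, edgeR). IFIT2 was called lower in each of the 15 alternatives, at -0.72 to -0.50. The 4 genes stand in a row on chromosome 10 (IFIT2 at chr10:89302046-89309271, GRCh38.p14), and 18725 bases separate IFIT2 from IFIT3. All 4 overlap the annotated span of LIPA, whose reads could be counted with theirs.

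**Figure D3:**
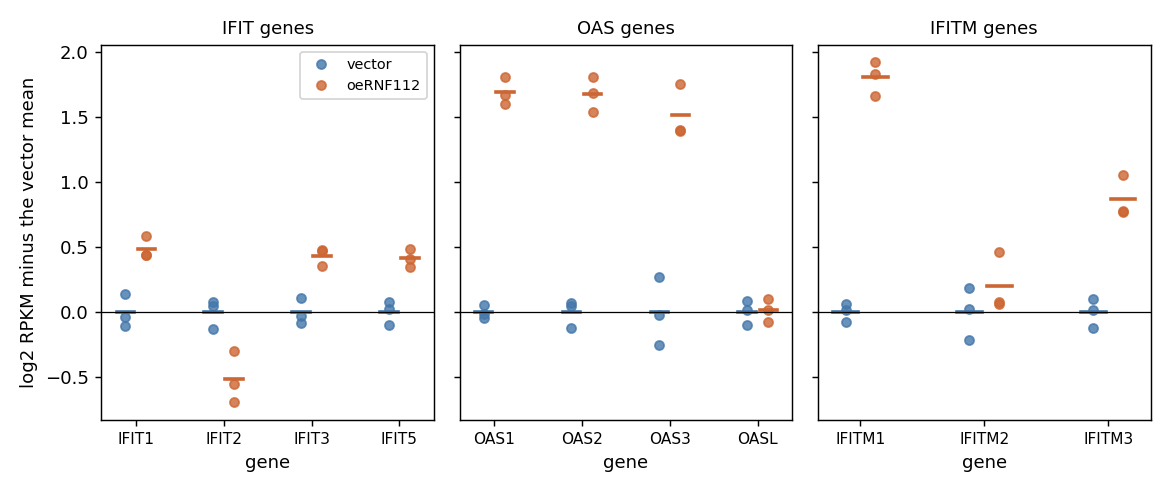
Level of each IFIT, OAS and IFITM gene in each sample as log2 RPKM minus the mean of the vector samples (vertical axis), with a bar at the mean of the 3 samples of a group, vector in blue and oeRNF112 in orange. Orange points lie below blue for IFIT2, among the blue for OASL and IFITM2, and above blue for all others drawn. These values are scaled by the sample totals, so that they lie slightly higher than the fitted fold changes.

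Ratios of relatives within a sample need no scaling between samples. The 3 given here were picked with the values in view, to set a gene that fell or did not pass beside one that rose, and are a description of the changes above with no test. The log2 ratio of IFIT2 to IFIT1 counts was 0.26, 0.47 and 0.22 in vector and -0.42, -0.96 and -0.68 in oeRNF112, a difference of -1.0. OASL over OAS2 went from 1.77, 1.60 and 1.89 to 0.24, 0.17 and -0.13, a difference of -1.66, and IFITM2 over IFITM1 from 1.47, 1.21 and 1.35 to -0.23, -0.11 and -0.43, a difference of -1.60.

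The helicases and the kinase of this group rose by between 0.39 and 0.93. HELZ2, a helicase also known as a nuclear receptor coactivator, changed most (log2FC 0.93, SE 0.118, adjusted p = 0.00101, edgeR). The paired helicases DDX60L and DDX60 had log2FCs of 0.85 and 0.76 (adjusted p = 0.00334 and 0.00301, edgeR). EIF2AK2, the kinase PKR that stops translation when it binds double-stranded RNA, had 5993, 7117 and 4752 counts in vector and 9157, 8452 and 11082 in oeRNF112. The groups were apart but each was wide, and the log2FC was 0.60 (SE 0.139, adjusted p = 0.0161, edgeR). ZNFX1, a helicase that senses RNA at mitochondria, had the smallest change of the 5, at 0.39 (SE 0.112, adjusted p = 0.0384, edgeR). The EIF2AK2 call was lost without vector replicate 1 or oeRNF112 replicate 3 (adjusted p = 0.0719 and 0.0522, edgeR). The ZNFX1 call was lost without vector replicate 1 or 3 (0.127 and 0.0945) and without oeRNF112 replicate 1 or 3 (0.0956 and 0.132).

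ISG15 is a ubiquitin-like protein that is attached to other proteins and also secreted. Of the 5 genes of its system, 4 rose and UBE2L6 did not pass the test (median 0.47). ISG15 had 4596, 3605 and 4992 counts in vector and 10346, 13551 and 9642 in oeRNF112, with no overlap and a log2FC of 1.27 (SE 0.162, adjusted p = 0.00105, edgeR). USP18, which takes ISG15 off its targets and also dampens signalling at the interferon receptor, rose about as much, with a log2FC of 1.31 (SE 0.148, adjusted p = 0.000591, edgeR). The ligase HERC5, which attaches ISG15, and its neighbour HERC6 changed less, at 0.44 and 0.47 (adjusted p = 0.00624 and 0.0102, edgeR). UBE2L6, the conjugating enzyme that hands ISG15 to HERC5, had 3632, 3343 and 3450 counts in vector and 3895, 4684 and 3870 in oeRNF112. After scaling with TMM factors oeRNF112 replicate 3 lay below vector replicate 1, and the log2FC was 0.18 (SE 0.103, adjusted p = 0.26, edgeR).

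Among the ADP-ribosyltransferases and DTX3L, 2 of 5 genes rose and 3 did not pass (median 0.36). PARP9 had a log2FC of 0.76 (SE 0.0976, adjusted p = 0.00107, edgeR) and PARP12, which modifies proteins with single ADP-ribose units, of 0.66 (SE 0.0845, adjusted p = 0.00104, edgeR). DTX3L, the ubiquitin ligase that works as a complex with PARP9 and starts head to head with it on chromosome 3, had 3516, 3879 and 2799 counts in vector and 4373, 4453 and 4980 in oeRNF112. The groups did not overlap, yet its log2FC of 0.36 had an adjusted p of 0.0526 (edgeR). DTX3L passed in 7 of 15 alternatives, with 0.0135 without vector replicate 2 (edgeR) and 0.0304 with DESeq2. Without vector replicate 1 the adjusted p was 0.132 (edgeR). The annotated spans of PARP9 and DTX3L overlap by 447 bases on opposite strands, and the strand setting of the counting is not given in the sources used here. PARP14 and PARP10 had log2FCs of 0.17 and 0.05 (adjusted p = 0.414 and 0.787, edgeR), and PARP10 gave -0.0030 without oeRNF112 replicate 1. PARP14 gave 0.29 without vector replicate 2, 0.03 without vector replicate 3 and 0.10 without oeRNF112 replicate 3, none past the test.

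All 3 genes for nucleotide and RNA chemistry rose (median 1.25), from low levels. RSAD2 encodes viperin, which turns CTP into a chain terminator for viral polymerases. It had 35, 61 and 39 counts in vector and 126, 185 and 148 in oeRNF112 (log2FC 1.69, SE 0.253, adjusted p = 0.00226, edgeR). CMPK2, the mitochondrial nucleotide kinase that lies head to head with RSAD2 on chromosome 2 with 751 bases of overlap, had 74, 71 and 83 counts in vector and 120, 185 and 168 in oeRNF112. Its log2FC was 0.97 (SE 0.208, adjusted p = 0.0117, edgeR), and the adjusted p was 0.0529 without vector replicate 1. ISG20, an exonuclease for single-stranded RNA, rose by 1.25 (SE 0.133, adjusted p = 0.000415, edgeR). None of the 3 overlapped between the groups.

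The genes named IFI held the largest single rise, and 5 of 6 were higher while IFI35 did not pass the test (median 1.28). IFI6, a small membrane protein that limits flavivirus replication at the endoplasmic reticulum, had 842, 695 and 745 counts in vector and 6451, 8570 and 6484 in oeRNF112. This 8.92-fold rise (log2FC 3.16, SE 0.143, adjusted p = 2.99e-06, edgeR) was the largest of the 48 in each fit across all genes. IFI27, a related small membrane protein, had 6683, 5593 and 6562 counts in vector and 18397, 25732 and 17745 in oeRNF112. Its log2FC was 1.64 (SE 0.154, adjusted p = 0.000263, edgeR), and oeRNF112 replicate 2 stood above the other two for both IFI6 and IFI27. IFI44L had 551, 648 and 499 counts in vector and 2040, 2204 and 2432 in oeRNF112 (log2FC 1.90, SE 0.114, adjusted p = 1.96e-05, edgeR). Its neighbour IFI44, 3643 bases away on chromosome 1, had 43.7 RPKM in vector against 2.36 RPKM for IFI44L, and its log2FC was 0.93 (SE 0.0823, adjusted p = 0.000176, edgeR). The DNA sensor IFI16 had a log2FC of 0.48 (adjusted p = 0.00703, edgeR) and IFI35 of 0.37 (adjusted p = 0.0673, edgeR), and neither overlapped between the groups. IFI35 passed in 5 of 15 alternatives, among them DESeq2 (adjusted p = 0.0441) and library totals (0.0242, edgeR).

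Of the 10 remaining effectors, 8 rose, RTP4 fell and SAMD9L did not pass (median 0.75). XAF1, an antagonist of the apoptosis inhibitor XIAP, had 120, 106 and 65 counts in vector and 389, 327 and 468 in oeRNF112 (log2FC 1.94, SE 0.217, adjusted p = 0.000545, edgeR). LAMP3, a lysosomal membrane protein, went from 112, 105 and 137 counts to 362, 372 and 479 (log2FC 1.69, SE 0.168, adjusted p = 0.000312, edgeR). In neither gene did the groups overlap. PLSCR1, a phospholipid scramblase that interferes with viral entry, rose by 1.12 (SE 0.0878, adjusted p = 0.000112, edgeR). EPSTI1, SP110, SAMD9 and SP100 had log2FCs of 0.94, 0.76, 0.75 and 0.73, each with an adjusted p under 0.05 (edgeR). SP100 and SP110 encode proteins of nuclear bodies, and SAMD9 restricts poxviruses. SAMD9L, beside SAMD9 on chromosome 7, had 918, 1186 and 657 counts in vector and 1091, 1089 and 1400 in oeRNF112. These overlapped (log2FC 0.30, SE 0.182, adjusted p = 0.283, edgeR). Without the high vector replicate 2 the log2FC was 0.51 (adjusted p = 0.0298, edgeR), the 1 of 15 alternatives in which SAMD9L passed.

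LGALS3BP, a secreted glycoprotein that binds galectins, had 12878, 12309 and 14431 counts in vector and 16971, 18034 and 17877 in oeRNF112. The rise was small but separated the groups, at 0.33 (SE 0.0947, adjusted p = 0.0362, edgeR). Its adjusted p was 0.129 and 0.0731 without vector replicate 1 or 2, and 0.0976, 0.0662 and 0.0868 without oeRNF112 replicate 1, 2 or 3 (edgeR). RTP4, a receptor chaperone that restricts flaviviruses, was the least abundant of the 48, with 14, 19 and 14 counts in vector and 3, 5 and 7 in oeRNF112. It was lower in all 3 samples, with a log2FC of -1.70 (SE 0.455, adjusted p = 0.0295, edgeR). This call rests on few reads: it was lost in each of the 6 fits that left out a sample (adjusted p = 0.0568 to 0.113, edgeR) and held in 4 of 13 alternatives that gave a value.

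Genes next to each other had both like and unlike changes. Consecutive genes of the 48 along a chromosome with under 100 kb between them formed 14 pairs. Among these consecutive pairs the closest in log2FC were HERC6 and HERC5 (0.47 and 0.44), IFIT3 and IFIT1 (0.34 and 0.39), IFIT1 and IFIT5 (0.39 and 0.32) and DDX60 and DDX60L (0.76 and 0.85). Those farthest apart were IFITM2 and IFITM1 (0.11 and 1.71), which are 4644 bases apart, and IFI44L and IFI44 (1.90 and 0.93), IFITM1 and IFITM3 (1.71 and 0.78) and IFIT2 and IFIT3 (-0.60 and 0.34) followed. The annotated spans of EIF2AK2, IFI16, SP110, PARP10, HERC5 and HERC6 also overlap another gene, so that their counts may share reads with it.

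Genes for the ligands, receptors, transcription factors, inhibitors and sensors of interferon signalling were then set beside the antiviral genes. Of 57 such genes listed, 41 had a row and 35 were tested, of which 7 rose, 2 fell and 26 did not pass (median log2FC 0.05). Over all 14467 genes tested, 9.97% were higher and 8.14% lower. These shares also belong beside the counts of the single lists below. Among the ligands, IFNB1 had 4, 2 and 0 counts in vector and 1, 2 and 1 in oeRNF112, and IFNL1 had 5, 4 and 2 in vector and 8, 25 and 10 in oeRNF112. Both were below edgeR's filter on low counts. With no filter IFNL1 had a log2FC of 1.86 and an adjusted p of 0.0794 (edgeR), and all its oeRNF112 samples lay above the vector samples. IFNL2 and IFNL3 had at most 2 counts in any sample, IFNE was tested and did not pass, and 13 IFNA genes, IFNK, IFNW1 and IFNG were not analysed here.

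Of 9 receptor and JAK kinase genes, 1 rose and 8 did not pass the test. The one was IFNLR1, the specific chain of the type III receptor, with 132, 116 and 111 counts in vector and 179, 177 and 211 in oeRNF112 (log2FC 0.58, SE 0.155, adjusted p = 0.0301, edgeR). Its call was lost without vector replicate 1, 2 or 3 (adjusted p = 0.0605, 0.0548 and 0.0717, edgeR) and without oeRNF112 replicate 1 or 3 (0.0752 and 0.115). The type I receptor chains IFNAR1 and IFNAR2 had log2FCs of -0.20 and 0.07 (SEs 0.0866 and 0.0827, adjusted p = 0.133 and 0.569, edgeR). None of 8 inhibitors of the pathway, among them SOCS1 and SOCS3, passed edgeR's test, and their log2FCs ran from -0.43 to 0.16. Of the 8 listed, the phosphatase gene PTPN2 (log2FC -0.28, adjusted p = 0.0594, edgeR) was the 1 with an unadjusted p under 0.05. It was also the 1 that DESeq2 called, while limma called 0.

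Of 7 STAT and IRF genes tested, 3 rose and 1 fell. IRF7, which drives the interferon alpha genes, went from 1187, 1122 and 1233 counts to 2701, 3181 and 2564 (log2FC 1.17, SE 0.112, adjusted p = 0.000263, edgeR). The groups were apart in all samples. IRF9 had 1546, 1444 and 1592 counts in vector and 2054, 2341 and 1968 in oeRNF112 (log2FC 0.39, SE 0.104, adjusted p = 0.0284, edgeR), a call lost without vector replicate 1 (0.0902), oeRNF112 replicate 1 (0.0819) or oeRNF112 replicate 2 (0.0732). IRF5 had a log2FC of 0.74 (adjusted p = 0.00658, edgeR). STAT2 and IRF3 had log2FCs of 0.26 and 0.10 (adjusted p = 0.0948 and 0.626, edgeR). STAT2 passed without vector replicate 2 (adjusted p = 0.0342, edgeR) and with library totals (0.0474). With limma STAT2 passed on log2(RPKM + 0.1) (0.0499) and on log2(RPKM + 1) at a mean RPKM of at least 1 (0.046). On log2(RPKM + 1) under the wider filter STAT2 did not pass (0.0505, limma). STAT2 also did not pass without vector replicate 1 or 3 (0.282 and 0.182, edgeR). IRF1, a factor that responds strongly to interferon gamma and to NF-kB, had 2786, 2598 and 2631 counts in vector and 1644, 1623 and 1670 in oeRNF112. The samples of each group were tight, and the log2FC was -0.78 (SE 0.083, adjusted p = 0.000412, edgeR).

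Among 10 sensors and adaptors of nucleic acid, 3 rose and 1 fell. The 3 were the members of the RIG-I family: DDX58 (RIG-I) with a log2FC of 0.53 (SE 0.0881, adjusted p = 0.00363, edgeR), DHX58 with 0.55 (SE 0.0996, adjusted p = 0.00583, edgeR) and IFIH1 with 0.35 (SE 0.0995, adjusted p = 0.0386, edgeR). MAVS, the mitochondrial adaptor through which DDX58 and IFIH1 signal, had 7725, 9814 and 7550 counts in vector and 7026, 5596 and 7071 in oeRNF112 (log2FC -0.43, SE 0.121, adjusted p = 0.0356, edgeR). The IFIH1 call was lost in each of the 6 fits that left out a sample (adjusted p = 0.0538 to 0.121, edgeR). The MAVS call was lost without vector replicate 1 or 2 (0.0864 and 0.0563) and without oeRNF112 replicate 1, 2 or 3 (0.0729, 0.0973 and 0.0588), and with library totals in place of TMM factors (0.107).

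**Figure D4:**
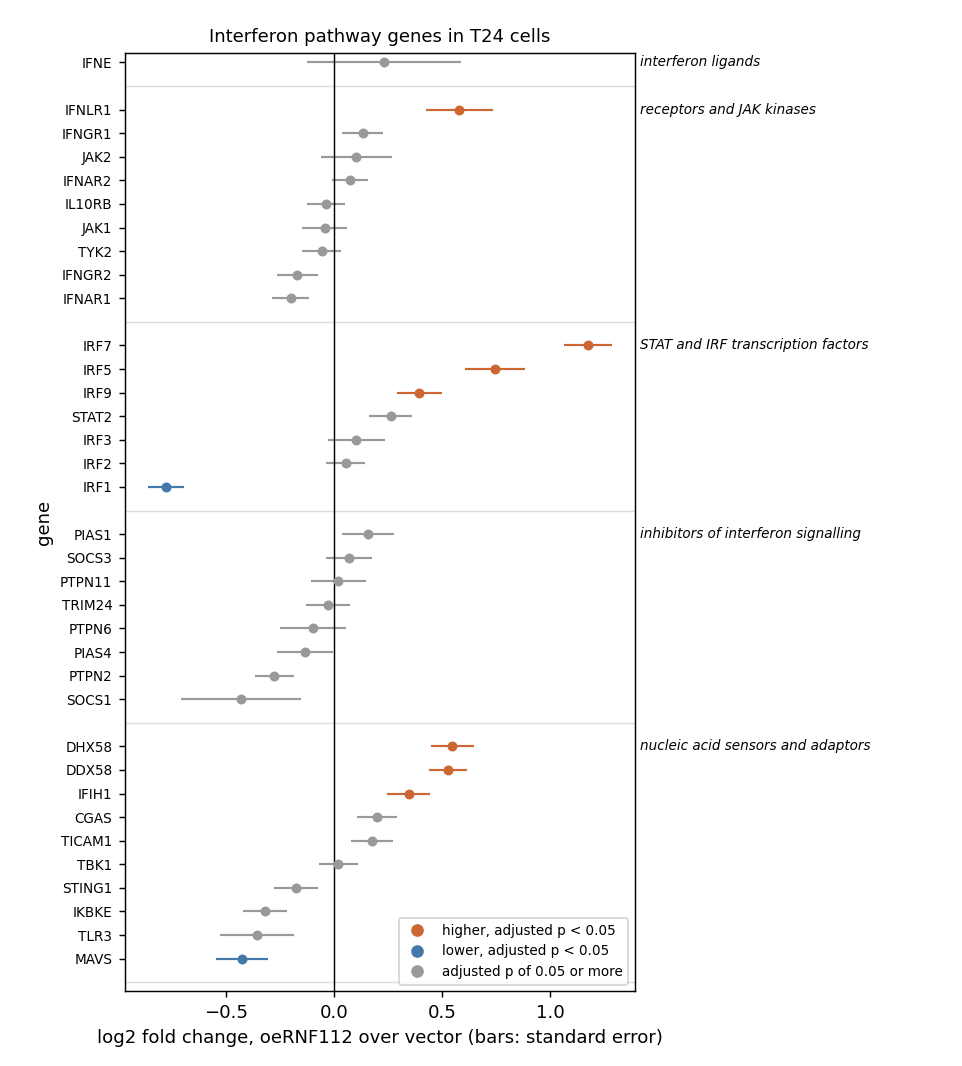
Fitted log2FC (horizontal axis, oeRNF112 over vector) of the 35 interferon pathway genes tested, by role, with bars of 1 standard error. Orange points were higher, blue lower and grey did not pass an adjusted p of 0.05. IRF7 lies farthest right at 1.17 and IRF1 farthest left at -0.78, while all 8 inhibitors are grey.

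The samples also differed by gene length in a way that the groups do not explain. Over all tested genes longer than 5 kb, the median deviation from the mean of the sample's own group was 0.13 on the log2 scale in vector replicate 2 and 0.09 in oeRNF112 replicate 3, and -0.11 in vector replicate 3 and -0.09 in oeRNF112 replicate 2. Genes under 2 kb deviated the opposite way, by -0.16, -0.13, 0.14 and 0.15 in the same samples. The 48 genes followed this pattern in replicates 2 and 3: the 10 under 2 kb, which include IFI6, deviated by 0.21 in oeRNF112 replicate 2, and the 20 over 5 kb by 0.12 in oeRNF112 replicate 3. In replicate 1 they deviated the same way at each length. From short to long, this was by -0.11, -0.07 and -0.09 in oeRNF112 and by 0.07, 0.07 and 0.04 in vector. All tested genes lay between -0.0134 and 0.0277 in these samples. Between the groups the median log2FC of all tested genes was -0.12 under 2 kb, -0.01 from 2 to 5 kb and 0.07 over 5 kb. For the antiviral genes it was 0.63, 0.57 and 0.76, with 6 of 10, 15 of 18 and 17 of 20 genes higher, where all tested genes of these lengths were higher in 6.04%, 10.1% and 11.8% of cases. The part of length in single genes was not tested.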

How the data were processed

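T24 RNA (vector, n = 3; oeRNF112, n = 3) was made into libraries with a stranded mRNA kit and sequenced. The authors deposited raw counts of reads per gene symbol and RPKM values. The submitters' processing notes name Trimmomatic 0.36, featureCounts, Subread 1.5.1 and build GRCh38. The aligner, the annotation, the strand setting and the treatment of reads that match several genes are not given in the sources used here, so counts of near-identical or overlapping genes are uncertain. RPKM in the deposited table could be recomputed from the counts, sample totals and a length per gene for 23152 of 23152 genes (within 0.1%).

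Counts were normalized with TMM factors and tested with edgeR 4.0.16 (filterByExpr, quasi-likelihood test, R 4.3.3), with Benjamini-Hochberg adjustment over all 14467 genes that passed the filter and a threshold of 0.05. Alternatives were DESeq2 1.42.0, its size factors, library totals, no filter, at least 10 counts in every sample, a block on the replicate number, leaving out 1 sample at a time, and limma 3.58.1 on log2(RPKM + 1) and log2(RPKM + 0.1). The scripts were tested on simulated data. At these depths, a count of 0 allows up to 3 reads, and such limits cover counting error only. Replicates differed by more than sampling noise.

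The genes, their roles and the pathway lists were chosen with earlier results of these data known. Values in every sample are given for the 12 largest rises, all falls and the 4 most abundant genes by a rule, and for other genes (those that did not pass, and those printed beside a relative) after their values had been seen. The 9 pathway genes named by choice were STAT2, IRF9, IRF1, IRF7, IRF3, IFNB1, IFNL1, IFNAR1 and IFNAR2, with 6 others that were called, and 1 more gene of that rule is not reported here or counted in the lists. Promoter windows and positions came from RefSeq's GRCh38.p14 and were matched by symbol. The motif, GAAA with a second GAAA after any 2 bases, was searched on both strands, and overlapping matches were counted.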

Additional observations from a re-analysis of the deposited data

How the results depend on the processing

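Of the 40 antiviral genes called, 28 kept their call in every alternative that gave a value. The number of antiviral genes called was 39 to 42 under the fits that used all samples without a block and 33 to 40 when a sample was left out, and IFI6 stayed the gene with the largest rise in each. Their median log2 fold change, 0.76, was 0.85 with library totals and 0.85 with limma on log2(RPKM + 0.1), and 0.71 to 0.80 when a sample was left out. Over all genes, 2620 calls became 1061 without vector replicate 1 and 3387 without vector replicate 2, the lowest and highest of the 6 such fits. Pathway calls, 9 in all, were 5 to 8 in these fits. With library totals, 2020 genes were higher and 663 lower (75.3% of calls higher, against 55% with TMM factors), and limma gave 70.5% to 72.9%. The log2 fold change of OASL turned to 0.0156 with library totals, to 0.0154 with limma on log2(RPKM + 1) under either filter and to 0.0159 with limma on log2(RPKM + 0.1). That of IFITM2 was -0.0355 to 0.230 and that of PARP10 -0.0030 to 0.134 when a sample was left out, with the sign turned for IFITM2 without vector replicate 2 (-0.0033) or oeRNF112 replicate 2 and for PARP10 without oeRNF112 replicate 1. None of these values passed the test. The causes were not tested.

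To look for pairing, each sample's log2 level of each gene was taken as its deviation from the mean of its own group. Between same-numbered samples of the 2 groups these deviations had negative correlations (-0.12, -0.36 and -0.30). The numbers were therefore not used as pairs in the main fit. These deviations also hold the length pattern described above, so the correlations cannot show that the cultures were unpaired. With the replicate number as a block, 876 genes were called (618 higher and 258 lower), 29 of them antiviral genes (28 higher), and 4 pathway genes. BST2, IFIT1, IFIT3, IFIT5, EIF2AK2, ZNFX1, HERC5, HERC6, IFI16, LGALS3BP and RTP4 lost their call under the block. Depth limited RTP4, IFNB1 and IFNL1, which had 25 or fewer counts in every sample.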
